A study of Mus musculus with 19 samples.

Results

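The genes described here are the 44 mouse genes that encode collagen chains. They were taken by name and found on the array through the RefSeq accession of each probe, with no use of measured values. Of the 44, 43 had at least 1 probe and 42 were tested, among 20187 genes tested in all. They were grouped as 11 fibrillar, 9 network, 9 FACIT (fibril-associated collagens with interrupted triple helices) and 15 other chains. Col12a1 was not analysed here, because no probe matched it by accession, and Col19a1 was well above background on no array. Fibroblasts grown from 7 organs of adult mice make up the 19 samples, and per the labels all of them share an age of 8 to 10 weeks, an enzymatic digestion of minced tissue for 40 min (trypsin or collagenase, not given by organ) and 5 days of culture with 10% serum. The groups are skin (2 samples), tail (3), gonad (3), heart (3), liver (3), lung (3) and kidney (2). Each sample was hybridised alone, in 1 colour, to an Agilent mouse expression array, and 18 of the 19 arrays had scanner output; lung replicate 2 is outside every comparison. Strain, sex, the kind of gonad, and whether the replicates of an organ came from separate animals are not stated in the labels, so the p-values measure the spread between these cultures, which may be technical.

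Collagens are the main structural proteins of connective tissue, and fibroblasts are their chief source. Fibrillar chains (types I, II, III, V, XI, XXIV and XXVII) assemble into the fibrils that bear tension, network chains form the sheets of basement membranes (type IV) and the short-chain lattices (types VIII and X), and FACIT chains sit on the surface of fibrils. Among the rest, type VI forms beaded filaments around cells, type VII the anchoring fibrils below the epidermis, types XIII, XVII, XXIII and XXV span the cell membrane, and types XV and XVIII carry both collagen and proteoglycan character. A collagen molecule is a trimer, so chains of 1 type are often made together.

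Levels below are log2 of the processed spot intensity of a gene's probe over the 75th percentile of the same array, so a level of 0 is that percentile. Levels of different genes come from different probes and are not compared. A gene was called in a comparison when limma gave a Benjamini-Hochberg adjusted p under 0.05 over all genes tested and a log2 difference of at least 1. The arrays of 5 samples stood apart from the other 13: gonad replicate 3, heart replicate 1, tail replicate 2 and both kidney arrays had a median raw intensity of 213 to 1985, against 63 to 130.5 on the other 13, and 84.8% to 96.5% of their spots were well above background, against 50.1% to 76.9%. These 5 are called arrays with raised background below, as a name for the raised raw intensity. Negative control spots had a median raw intensity of 49.5 to 176 on them and 37 to 40 on the other 13. After background subtraction, the 75th percentile of intensity was still 539 to 4151, against 395 to 544. How much of the raised intensity is background was not tested. Since both kidney arrays are among the 5, kidney and the raised intensity cannot be told apart. The arrays lay on 3 slides, none with more than 1 array of an organ. The fibroblast marker list had all 10 genes well above background on every array outside kidney and 9 or 10 in kidney, and its summed level (intensity over the 75th percentile, added over the list) was 110 to 232 in kidney and 384 to 2344 on the other arrays. Pdgfra, the defining fibroblast marker of that list, was well above background on all 18 arrays. In cultures of mixed cells, fewer cells of a type and less RNA per cell cannot be told apart.

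**Figure D1:**
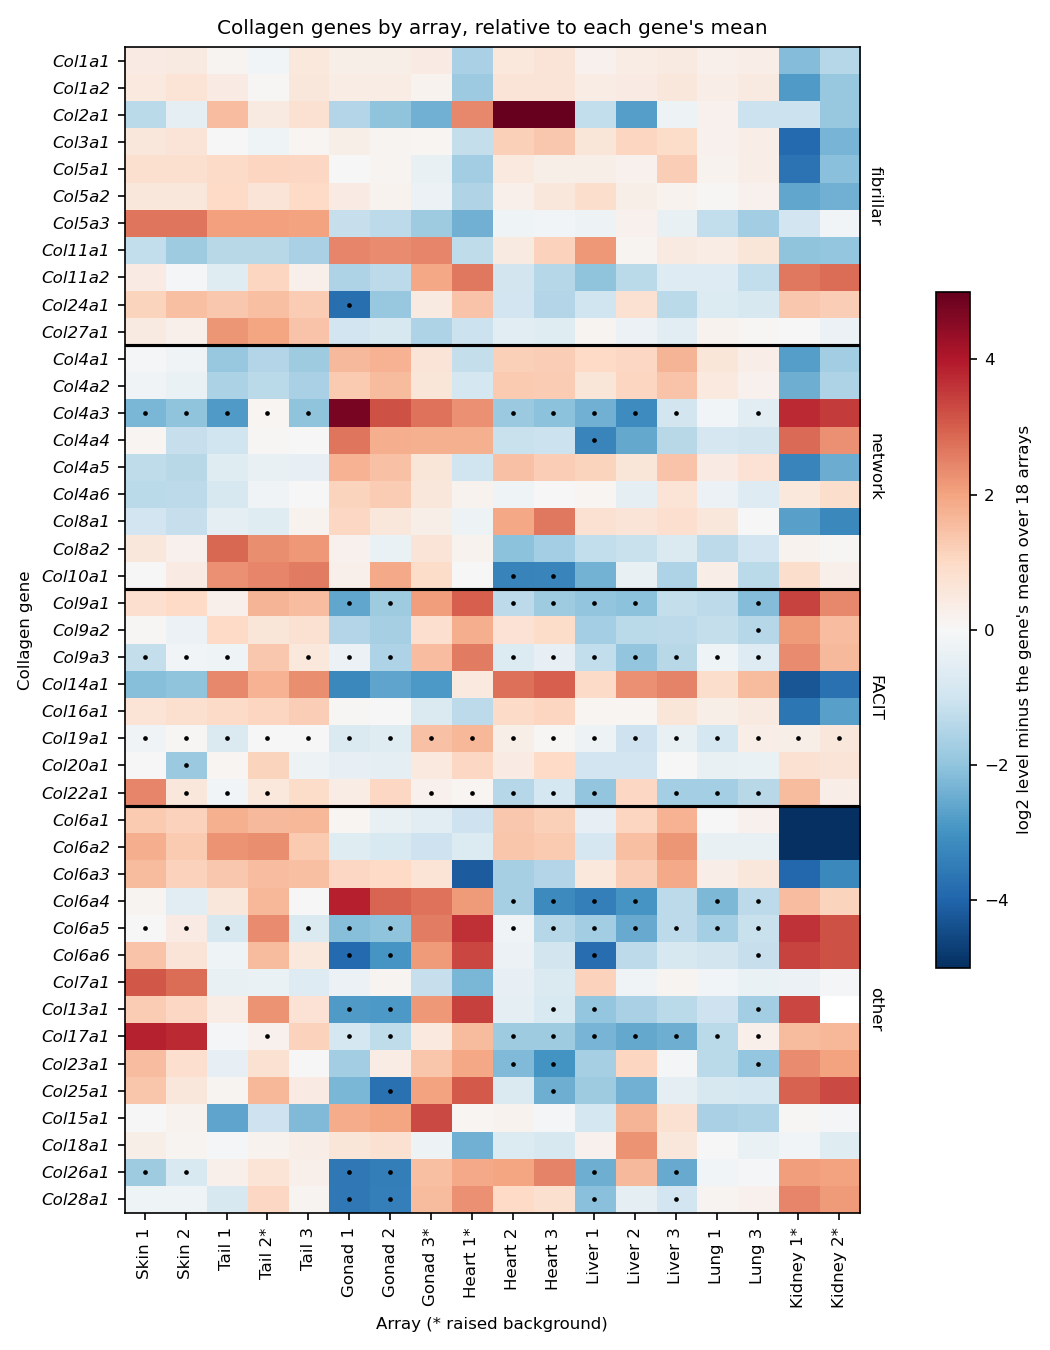
Levels of 43 collagen genes (rows, in their 4 classes) on 18 arrays (columns, an asterisk marks the 5 arrays with raised background), as log2 level minus the gene's mean over the arrays; the colour scale stops at 5 in either direction and a dot marks a spot not well above background. Col5a3 was high on the skin and tail arrays, Col2a1 on the heart arrays and Col11a1 on the gonad arrays, and the kidney columns differ from the rest in many rows.

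Detection differed widely within the family. Of the 43 genes with a probe, 24 were well above background on all 18 arrays, 18 on 2 to 17 arrays and 1 on none. Col6a5 and Col9a3 were well above background on 5 arrays each and on 0 of the 13 arrays without raised background. For 8 genes (Col11a2, Col9a1, Col9a3, Col6a5, Col6a6, Col13a1, Col25a1 and Col28a1, 19% of those tested) all arrays with raised background lay above the other 13 (4 of the 5 have a value for Col13a1), as did 22.9% of all genes, and 1 gene, Col1a2, lay below, against 10.5% of all genes. The part of the raised background in these levels was not tested.

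Most of the family differed between organs. By the moderated F test over the 7 organ means, 27 of the 42 genes passed an adjusted p of 0.05, beside 32.4% of all genes tested: 9 of 9 network, 8 of 11 fibrillar, 3 of 7 FACIT and 7 of 15 other chains. Over the 13 arrays without raised background, which leave out kidney, 29 collagen genes passed and 53% of all genes did. Some genes passed with all arrays and not with these 13: Col1a2 (adjusted p = 0.42 over 13 arrays), Col5a1 (0.15), Col5a2 (0.11), Col6a1 (0.089) and Col6a2 (0.090).

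Each organ was set against the mean of the other 6, and skin and tail together against the mean of the 5 internal organs; these comparisons share arrays. In skin and tail, 13 collagen genes were called, beside 4.16% of all genes tested: 10 were higher (2.5% of all genes) and 3 lower (1.66%). In skin, 4 were called (1.37% of all genes), 3 higher (0.733%) and 1 lower (0.639%). In tail, 11 were called (6.18%), 8 higher (4.02%) and 3 lower (2.16%). In gonad, 9 were called (2.84%), 6 higher (2.04%) and 3 lower (0.807%). In heart, 5 were called (3.69%), 3 higher (1.36%) and 2 lower (2.33%). In liver, 3 were called (1.68%), 1 higher (1.14%) and 2 lower (0.545%), and in lung 0 (0.505%, with 0.381% higher and 0.124% lower). In kidney, 26 were called where 76.5% of all genes were, 11 of them higher (35.1%) and 15 lower (41.4%), a share of the family below that of all genes. Over the 13 arrays without raised background the counts were 24 in skin and tail (28.7% of all genes), 16 in skin (25%), 15 in tail (23.3%), 21 in gonad (23.3%), 14 in heart (9.57%), 6 in liver (6.16%) and 3 in lung (2.49%). Of the 42 genes, 22 were called in at least 1 comparison outside kidney, beside 10.9% of all genes, 14 in kidney alone (70.8% of all genes) and 6 in none (18.3%), the last being Col24a1, Col20a1, Col22a1, Col13a1, Col18a1 and Col26a1. The scaling set the median log2 difference of all genes at 0.45 in skin and tail, 0.38 in skin, 0.34 in tail, -0.11 in heart and -0.25 in kidney, and within 0.1 of 0 elsewhere. Relative to it the median collagen gene stood at 0.08 in skin and tail, -0.06 in skin, 0.11 in tail, -0.02 in gonad, 0.13 in heart, -0.40 in liver, -0.45 in lung and 0.36 in kidney. The split into higher and lower calls depended on the scaling: with the median of detected probes it was 3 and 4 in heart, 3 and 4 in skin, 10 and 6 in skin and tail and 17 and 15 in kidney; with quantile normalization it was 2 and 1 in liver, and after normexp correction as well 2 and 0 in liver, 3 and 2 in skin and 8 and 5 in skin and tail; in the deposited value table it was 7 and 2 in gonad and 3 and 4 in heart.

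Both type I chains varied little outside the arrays with raised background. Col1a1 and Col1a2, the chains of the most abundant fibrillar collagen, lay between 7.01 and 7.5 and between 9.23 and 9.59 on the other 13 arrays. On the 5 arrays with raised background, Col1a1 had 4.70 and 5.44 in kidney, 5.24 in heart replicate 1, 6.71 in tail replicate 2 and 7.28 in gonad replicate 3. The kidney arrays and heart replicate 1 were thus the 3 low ones. Col1a1 did not pass the F test (adjusted p = 0.060), and neither chain was called outside kidney. Col3a1, which forms fibrils with type I in soft tissue, had its highest mean in liver (7.58) and its lowest in kidney (3.58), and was called in kidney only. On the 13 other arrays it ran between 6.69 and 8.05 and passed the F test (adjusted p = 0.0029).

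Col5a3, a chain of the type V collagen that regulates fibril diameter, was the collagen gene with the smallest adjusted p in skin and tail. Its levels were 4.97 and 4.98 in skin and 4.35, 4.36 and 4.30 in tail, against a lowest, median and highest of -0.11, 1.31 and 2.5 on the 13 arrays of internal organs. Every skin and tail array lay above every internal organ array. The log2 difference was 3.27 ± 0.34 (SE; adjusted p = 6.7e-05), and 3.12 over the 13 arrays without raised background. Set singly against the other 6 organs, Col5a3 was higher in skin (3.10 ± 0.47, adjusted p = 0.0054) and in tail (2.35 ± 0.40, adjusted p = 0.0022), and lower in gonad (-1.67 ± 0.40, adjusted p = 0.036), where its levels were 1.13, 1.00 and 0.53 against -0.11, 2.13 and 4.98 (lowest, median and highest) elsewhere. The gonad call was lost when any 1 of 13 arrays was left out, with an adjusted p of up to 0.18, and with the array's background floor as a covariate (0.075), and the skin call when either skin array was, with up to 0.21. The other type V chains moved less: Col5a1 was called in skin and tail (1.39 ± 0.37, adjusted p = 0.048) and Col5a2 had a difference of 1.12 that missed the threshold (adjusted p = 0.055). The Col5a1 call was lost over the 13 arrays (0.56), with quantile normalization (0.85, or 0.84 after normexp correction), with the slide as a block (adjusted p = 0.086), with the floor covariate (0.10) and when any 1 of 13 arrays was left out (up to 0.24).

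Col27a1, a fibrillar chain known from cartilage and bone growth, had levels of 0.57, 0.33 and -0.21 in tail, against -3.16, -1.94 and -1.18 (lowest, median and highest) on the other 15 arrays. All 3 tail arrays lay above all others. It was higher in tail (2.16 ± 0.26, adjusted p = 0.00017) and in skin and tail (1.53 ± 0.22, adjusted p = 0.00093), where skin had -1.18 and -1.39; the joint call was lost with quantile normalization (adjusted p = 0.070). Gonad, with -2.57, -2.44 and -3.16 against a median of -1.58 elsewhere, was lower (-1.29 ± 0.26, adjusted p = 0.015); this call was lost without gonad replicate 1 or 2 (adjusted p up to 0.080), with quantile normalization (-1.18, or -0.64 after normexp correction, adjusted p = 0.46 and 0.27) and in the deposited value table (-0.89).

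Col11a1, a chain of the type XI collagen that nucleates thin fibrils, had levels of 3.39, 3.31 and 3.41 in gonad, against -1.04, -0.26 and 3.14 (lowest, median and highest) on the other 15 arrays. The gonad arrays stood above all others, with liver replicate 1 the next, so that the groups did not overlap. The difference was 2.97 ± 0.45 (adjusted p = 0.0020), and it was called under all alternatives and with each array left out in turn. In skin (-0.26 and -0.82) and tail (-0.41, -0.41 and -0.65) it was low, against a median of 1.43 on the internal organ arrays, with a log2 difference of -1.88 ± 0.38 for skin and tail (adjusted p = 0.0098); without skin replicate 2 the adjusted p was 0.10. Col11a2, the partner chain, was called in kidney alone, and all 5 arrays with raised background lay above the rest (-0.64 to 1.06 against -3.74 to -1.31).

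Col2a1, the main fibrillar chain of cartilage, had levels of 1.77, 4.56 and 4.82 in heart, against -3.36, -1.72 and 0.94 (lowest, median and highest) on the other 15 arrays. The lowest heart array was replicate 1, which has raised background, and it still lay above every other array; the next was tail replicate 1. The log2 difference was 5.22 ± 0.61 (adjusted p = 0.00019), with 5.88, 3.08 and 6.80 on the 3 slides taken separately and 5.99 over the 13 arrays. It kept its call under every alternative and with each array left out. Beside it, the summed level of the cartilage marker list was 28.6 to 67.9 in heart and 20.6 to 273 on the other arrays, with the highest values in tail, and Acan, its defining marker, was at -3.07 to 0.65 in heart; the part of cartilage cells in the result was not tested. Of the other chains of cartilage fibrils, Col9a2 averaged -1.53 in heart, -0.85 in kidney and between -4.13 and -1.89 in the other organs, and neither it nor Col9a1 or Col11a2 was called in heart.

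**Figure D2:**
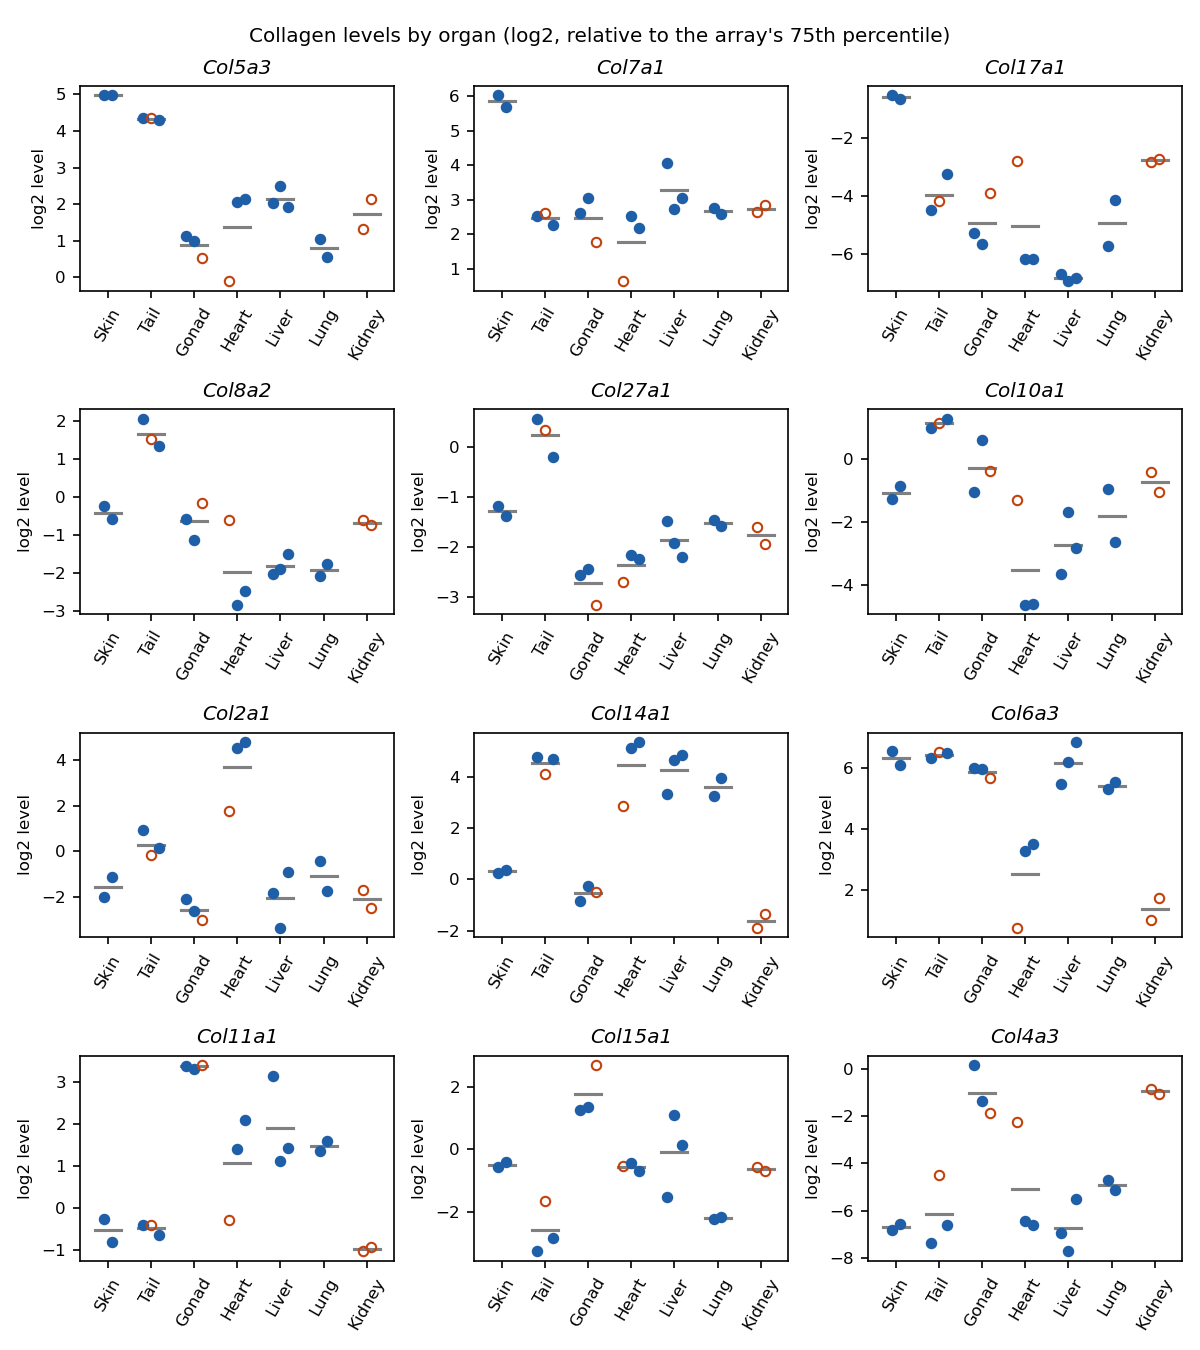
Log2 level by organ for 12 collagen genes; each point is an array (open points have raised background) and each bar the organ's mean. Col5a3 lay at 4.30 to 4.98 in skin and tail and at most at 2.5 elsewhere, Col7a1 and Col17a1 stood apart in skin, Col2a1 in heart, and Col11a1 and Col15a1 in gonad.

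Among the network chains, Col4a1 and Col4a2 encode the chains of the trimer found in nearly all basement membranes. They lie head to head, and by RefSeq their starts are 21 bases apart on opposite strands, so that 78 bases belong to both promoter windows. The windows (250 bases before to 50 after the start, RefSeq, GRCm38.p6) are shown because this pair of genes had nearly the same pattern over the arrays. Capitals mark the matches to a CCAAT box (CCAAT, or ATTGG for the other strand) and a GC box (GGGCGG, or CCGCCC for the other strand), with the sequence written 5' to 3' on the gene's strand. Col4a1 is at chr8:11312777-11313076 on the minus strand and Col4a2 at chr8:11312555-11312854 on the plus strand.
Col4a1: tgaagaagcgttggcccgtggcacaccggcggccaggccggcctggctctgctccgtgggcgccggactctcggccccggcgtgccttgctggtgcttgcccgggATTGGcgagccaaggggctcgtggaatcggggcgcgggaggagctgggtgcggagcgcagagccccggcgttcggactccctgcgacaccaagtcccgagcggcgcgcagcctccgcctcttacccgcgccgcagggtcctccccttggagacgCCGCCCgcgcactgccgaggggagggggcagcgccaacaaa
Col4a2: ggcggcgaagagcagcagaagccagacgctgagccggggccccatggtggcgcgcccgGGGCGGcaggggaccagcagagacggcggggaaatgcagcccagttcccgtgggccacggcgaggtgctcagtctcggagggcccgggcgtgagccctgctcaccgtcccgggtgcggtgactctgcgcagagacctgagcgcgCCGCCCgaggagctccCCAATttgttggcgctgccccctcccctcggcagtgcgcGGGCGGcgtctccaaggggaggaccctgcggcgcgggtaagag
RefSeq promoter windows were found for 35 of the 44 genes. A GC box was in 62.9% of them and in 35.7% of all 32851 windows, a CCAAT box in 34.3% and 37.4%, and a TATA box (TATAAA) in 14.3% and 13.6%; these are counts of letters, not of bound sites.

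Both genes fell in tail. Col4a1 had 3.87, 4.30 and 3.99 in tail, against 3.03, 6.43 and 7.52 (lowest, median and highest) on the other 15 arrays, and Col4a2 had 3.92, 4.14 and 3.87, against 3.06, 6.08 and 7.08. The kidney arrays are the ones at or below the tail level, and the remaining arrays, heart replicate 1 included, lay above it. The log2 differences were -1.90 ± 0.45 (adjusted p = 0.020) and -1.66 ± 0.41 (adjusted p = 0.026), and -2.74 and -2.37 over the 13 arrays. Leaving out any 1 tail array ended both calls (adjusted p up to 0.13 and 0.15), as did, for Col4a2, leaving out lung replicate 1 or taking the slide as a block (0.052). Endothelial cells, which make basement membrane, had a summed marker level of 4.45 to 6.48 in tail, 11.6 to 30.4 in gonad, 15.0 to 34.6 in liver and 3.85 to 6.97 in the other organs, with Cdh5, their defining marker, well above background on 1 of 3 tail arrays; the part of this in the result was not tested.

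Col4a3 and Col4a4, which with Col4a5 form the trimer of the kidney's filtration barrier, were higher in gonad. Col4a3 had 0.17, -1.37 and -1.86 in gonad, against -7.73, -6.44 and -0.84 (lowest, median and highest) elsewhere. The kidney arrays (-0.84 and -1.06) lay within the gonad range and heart replicate 1 (-2.26) just below it, while Col4a3 was not well above background in skin, tail and liver. Gonad was 8.75-fold higher than the mean of the other organs, with skin, tail and liver set no lower than the lowest signal well above background. Heart and lung, with 1 array each well above background, kept the signal of their dim arrays. This fold is thus not a strict lower bound. The log2 difference was 4.07 (adjusted p = 0.014), and 1.77 after normexp correction and quantile normalization, which is a smaller fold. Without gonad replicate 1 or 2 the adjusted p was up to 0.17. In skin and tail, Col4a3 was at least 1.68-fold lower (adjusted p = 0.043), a call lost when any 1 of 12 arrays was left out (adjusted p up to 0.21), with the floor covariate (0.093) and after normexp correction and quantile normalization (a log2 difference of -0.97, against -2.69). Col4a4 had 1.41, 0.52 and 0.50 in gonad, against -4.57, -2.19 and 1.54 elsewhere, with both kidney arrays above gonad replicates 2 and 3 (2.37 ± 0.56, adjusted p = 0.036; lost when any 1 of 11 arrays was left out, up to 0.31). That call was also lost with quantile normalization (0.10, or 0.098 with a difference of 1.36 after normexp correction), median scaling (0.090), the mean of its probes (0.14), the slide as a block (0.051) and the floor covariate (0.081). It was lower in liver (-4.57, -3.83 and -2.67, of which 1 was not well above background; -2.88 ± 0.56, adjusted p = 0.019), where no array of another organ was as low; without liver replicate 1 or 2 the adjusted p was up to 0.15, and the call was also lost with the mean of its probes (0.065) and after normexp correction and quantile normalization (-1.63).

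Col4a6, which lies head to head with Col4a5 and joins it in the basement membranes of smooth muscle and skin, had 2 probes. The probe used had -3.20 and -3.16 in skin, against -2.63, -1.78 and -0.57 (lowest, median and highest) on the other 16 arrays. In gonad it had -0.72, -0.57 and -1.28, against a median of -2.02 elsewhere. It was lower in skin (-1.50 ± 0.33, adjusted p = 0.041) and in skin and tail (-1.09 ± 0.24, adjusted p = 0.015), and higher in gonad (1.21 ± 0.28, adjusted p = 0.031). The skin and gonad calls were lost when any 1 of 12 and 8 arrays was left out (adjusted p up to 0.68 and 0.28), and that for skin and tail without either skin array or tail replicate 1 (up to 0.11). All 3 were lost with quantile normalization, with and without normexp correction, and in the value table (-0.99 in skin, -0.77 in skin and tail and 0.96 in gonad), that in skin also with the slide as a block (0.055), and those in skin and gonad with the floor covariate (0.074 and 0.057). The brighter probe was set aside because its spot on kidney replicate 2 was flagged. Used in place of the other, in a check added after the data were seen, it gave the same directions with larger differences. Its levels were -2.78 and -2.68 in skin and -1.59, -0.84 and -0.95 in tail, against 4.05, 4.03 and 3.30 in gonad, with differences of -4.15 in skin (adjusted p = 0.0017), -3.85 in skin and tail (6.2e-05) and 3.46 in gonad (0.00060). The smooth muscle and pericyte list had a summed level of 1524 to 1717 in skin, 903 to 1199 in tail and 1533 to 2068 in gonad, and Myh11, its defining marker, lay at -0.72 to 0.01 in skin, -1.06 to -0.53 in tail and 3.06 to 4.12 in gonad; the part of this in the Col4a6 levels was not tested. Col4a5 itself was called in kidney only.

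The short network chains split by organ. Col8a2, a chain of the lattice below the corneal endothelium, had 2.07, 1.52 and 1.36 in tail, against -2.84, -1.14 and -0.15 (lowest, median and highest) elsewhere. No other array reached the lowest of tail. It was higher in tail (2.89 ± 0.39, adjusted p = 0.00041) and in skin and tail (2.02 ± 0.33, adjusted p = 0.0021), where skin had -0.24 and -0.58. Its partner Col8a1, also made by vascular cells, was instead higher in heart: 1.71, 3.91 and 4.60, against -1.27, 2.13 and 2.99 on the other 15 arrays. The heart array with raised background lay within the range of the others and the other 2 above it (1.90 ± 0.45, adjusted p = 0.027). Within slides the Col8a1 difference was 2.33, -0.17 and 3.05, the negative value coming from the slide with heart replicate 1, and the call was lost without heart replicate 2 or 3, kidney replicate 2, lung replicate 3 or skin replicate 2 (adjusted p up to 0.24) and with the floor covariate (0.068).

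Col10a1, the chain of hypertrophic cartilage, had 1.00, 1.16 and 1.29 in tail, against -4.63, -1.28 and 0.60 (lowest, median and highest) elsewhere. Tail lay above every other array (2.84 ± 0.63, adjusted p = 0.015), though leaving out any 1 tail array ended the call (adjusted p up to 0.096). In heart its levels were -1.31 on the array with raised background and -4.63 and -4.60 on the others, both not well above background, so 1 of 3 heart arrays measured it, and the difference was -2.60 ± 0.63 (adjusted p = 0.034), lost when any 1 of 10 arrays was left out (up to 0.26), with median scaling (0.085) and with the floor covariate (0.054), and -1.54 after normexp correction and quantile normalization. Beside the tail results, the tendon list had a summed level of 297 to 381 in tail and at most 78.9 elsewhere. All 7 of its genes were well above background on the tail arrays, as on the skin arrays, with 5 to 7 in lung. Tnmd, the list's defining marker, was at 1.48 to 2.17 in tail and at most at -1.16 on the other arrays. The cartilage list had 185 to 273 in tail and at most 168 elsewhere, with Acan at -2.49 to -0.87 in tail. Of its 10 genes, 7 or 8 were well above background in tail and 8 or 9 in kidney. The part of tendon or cartilage cells in the tail results was not tested.

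Col14a1, a FACIT chain of mature fibrils, separated the organs into a high and a low set. Its levels were 4.79, 4.12 and 4.70 in tail, 2.86, 5.14 and 5.38 in heart, 3.34, 4.66 and 4.86 in liver and 3.27 and 3.98 in lung. They were 0.27 and 0.37 in skin, -0.83, -0.25 and -0.51 in gonad and -1.90 and -1.36 in kidney. No array of the last 3 organs reached the lowest of the first 4, that of heart replicate 1. Col14a1 had the smallest F test p of the family (adjusted p = 5.0e-05). It was higher in tail (2.78 ± 0.46, adjusted p = 0.0020), heart (2.69 ± 0.46, adjusted p = 0.0035) and liver (2.49 ± 0.46, adjusted p = 0.013), and lower in gonad (-3.13 ± 0.46, adjusted p = 0.0018). Only the liver call was lost when 1 array was left out (liver replicate 2 or 3, adjusted p up to 0.11); the liver call was lost with the mean of both probes (1.57, adjusted p = 0.079), and the difference was 1.60 over the 13 arrays. A second, dimmer probe of Col14a1 followed the first with r = 0.61 over the 18 arrays, was also low in gonad, its lowest organ, and had its highest mean in heart. The skin and tail arrays thus lay on opposite sides for this gene, and their joint comparison with the internal organs gave 0.39 with no call.

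Of the other FACIT chains, Col16a1 was called in skin and tail: 6.48 and 6.59 in skin and 6.77, 6.86 and 7.02 in tail, against 2.17, 5.89 and 6.88 on the internal organ arrays. The groups overlapped, and the difference of 1.41 ± 0.35 (adjusted p = 0.035) was 0.49 over the 13 arrays without raised background. The call was lost there, when any 1 of 11 arrays was left out (adjusted p up to 0.21), with quantile normalization (0.86 with and without normexp correction), with the slide as a block (0.064) and with the floor covariate (0.079). The type IX chains Col9a1, Col9a2 and Col9a3, partners of type II in cartilage, and Col20a1 and Col22a1 were called in no comparison outside kidney.

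Type VI filaments surround most connective tissue cells, and their 3 classical chains are Col6a1, Col6a2 and Col6a3. The first pair lies on chromosome 10, both genes on the minus strand with 102414 bases between their starts by RefSeq (GRCm38.p6). Their promoter windows are printed, in the same way as above, since the pair followed each other closely with no shared start. Col6a1 is at chr10:76725995-76726294 and Col6a2 at chr10:76623581-76623880. Neither window holds a TATAAA or CCAAT match, and the capitals mark the single GC box of the Col6a2 window; the Col6a1 window holds none of the 3 motifs.
Col6a1: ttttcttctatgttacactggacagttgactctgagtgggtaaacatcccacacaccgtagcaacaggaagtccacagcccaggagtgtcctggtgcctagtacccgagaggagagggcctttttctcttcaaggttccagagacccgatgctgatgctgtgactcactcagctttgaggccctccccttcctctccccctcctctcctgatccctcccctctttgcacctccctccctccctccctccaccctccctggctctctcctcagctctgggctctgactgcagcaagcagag
Col6a2: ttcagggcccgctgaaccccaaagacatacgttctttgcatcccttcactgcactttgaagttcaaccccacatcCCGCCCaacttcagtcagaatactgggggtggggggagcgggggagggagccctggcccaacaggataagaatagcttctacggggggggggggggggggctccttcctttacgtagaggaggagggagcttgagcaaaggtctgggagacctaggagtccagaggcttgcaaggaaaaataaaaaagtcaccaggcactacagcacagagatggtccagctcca
Col6a1 had 7.34 and 7.17 in skin and 7.79, 7.63 and 7.68 in tail, against 0.57, 6.04 and 7.75 (lowest, median and highest) on the internal organ arrays. Col6a2 had 4.77 and 4.23 in skin and 5.17, 5.24 and 4.26 in tail, against -2.44, 2.34 and 5.14. Both kidney arrays were lowest by far for either gene, and liver replicate 3 was as high as tail. The differences for skin and tail were 2.31 ± 0.39 (adjusted p = 0.0030) and 2.74 ± 0.46 (adjusted p = 0.0025), and without the 5 arrays of raised background, kidney among them, 0.96 and 1.36, of which only the second was called. In tail alone the differences were 2.19 ± 0.47 (adjusted p = 0.011) and 2.51 ± 0.54 (adjusted p = 0.011), and neither was called over the 13 arrays (adjusted p = 0.077 and 0.15). Leaving out 1 tail array also ended the tail call, for Col6a1 any of the 3 and for Col6a2 replicate 1 or 2 (adjusted p up to 0.080 and 0.096).

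Col6a3 departed from its partners in heart. Its levels were 0.78, 3.28 and 3.50 in heart, against 1.04, 6.0 and 6.84 (lowest, median and highest) on the other 15 arrays. Apart from the kidney arrays (1.04 and 1.74), no array outside heart was below 5.29. The log2 difference was -2.74 ± 0.46 (adjusted p = 0.0029), with -1.94, -5.41 and -1.34 on the 3 slides and -2.66 over the 13 arrays, and it was called under all alternatives and with each array left out. On heart replicates 2 and 3 Col6a1 stood at 7.36 and 7.21 and Col6a2 at 4.32 and 4.23, where skin and tail had 7.17 to 7.79 and 4.23 to 5.24. Col6a3 was higher in tail (1.81 ± 0.46, adjusted p = 0.030; lost over the 13 arrays with 0.94, with the slide as a block with an adjusted p of 0.057, and when any 1 of 6 arrays was left out, with an adjusted p up to 0.15) and in skin and tail (2.10 ± 0.39, adjusted p = 0.0055; adjusted p = 0.055 without skin replicate 1). Col6a4, a further type VI chain, had 0.52, -0.43 and -0.64 in gonad, against -6.75, -3.86 and -1.24 elsewhere, so that the groups did not overlap. Gonad was 12.6-fold higher, with lung, which was dim, set no lower than the lowest signal well above background. Heart and liver, each with 1 of 3 arrays well above background, kept the signal of their dim arrays. This fold is thus not a strict lower bound. The adjusted p was 0.020, and up to 0.19 without gonad replicate 1 or 2. The second probe of Col6a4 had its highest mean in kidney. The mean of both probes was not called (2.34 on the log2 scale, adjusted p = 0.11, against 3.73 for the probe used).

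Col7a1, the anchoring fibril chain that fixes epidermis to dermis, had 6.03 and 5.70 in skin, against 0.63, 2.60 and 4.05 (lowest, median and highest) on the other 16 arrays. Col17a1, a membrane chain of the hemidesmosomes of basal keratinocytes, had -0.53 and -0.66 in skin, against -6.94, -4.87 and -2.71. Neither gene had an array of another organ within the skin range. Col7a1 was higher in skin by 3.30 ± 0.46 (adjusted p = 0.0033) and Col17a1 by 13.8-fold (adjusted p = 0.012). Both were also called in skin and tail, Col7a1 with 1.58 ± 0.33 (adjusted p = 0.012) and Col17a1 with 4.57-fold (adjusted p = 0.0083). For these Col17a1 folds, liver and lung were set no lower than the lowest signal well above background. Gonad, heart and tail, with 1, 1 and 2 of 3 arrays well above background, kept the signal of their dim arrays. Neither fold is thus a strict lower bound. The joint result rested on skin for Col7a1, whose tail levels (2.53, 2.60 and 2.27) lay among those of internal organs, and on the slide with no skin array its difference was -0.06; after normexp correction and quantile normalization the joint call was lost (0.99). With 1 skin array left out, no collagen gene was called in skin, and for these genes the adjusted p was up to 0.13 and 0.34 in skin, and 0.10 and 0.062 in skin and tail. Col17a1 was lower in liver by at least 2.37-fold (adjusted p = 0.019), where it was not well above background on any array; leaving out any 1 liver array ended that call (up to 0.11). The liver call was also lost with the floor covariate (0.052) and with quantile normalization (a log2 difference of -1.33, or -0.68 after normexp correction, against -3.11), so that the fold falls below its bound under the last setting. After the same correction and normalization the Col17a1 difference was 2.18 in skin and 1.12 in skin and tail, both called, against 4.14 and 2.62. Beside these results, the keratinocyte list had a summed level of 12.5 to 15.4 in skin and at most 9.62 elsewhere. In skin and in tail 7 of the list's 8 genes were well above background, and all 8 in kidney, gonad replicate 3 and heart replicate 1. Krt5, the defining marker of the list, was at 0.42 and 0.55 in skin, -1.71 to -1.27 in tail and 0.63 to 1.11 in kidney. The part of keratinocytes in the skin results was not tested.

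Col15a1, a multiplexin of vessel and muscle basement membranes, had 1.25, 1.35 and 2.68 in gonad, against -3.23, -0.69 and 1.1 (lowest, median and highest) on the other 15 arrays. Gonad lay above all others (2.85 ± 0.46, adjusted p = 0.0034), though the call was lost in the deposited value table (adjusted p = 0.56), which holds lung replicate 2. In tail it had -3.23, -1.65 and -2.82, against a median of -0.52 elsewhere, and was lower (-2.21 ± 0.46, adjusted p = 0.010; up to 0.12 without tail replicate 1 or 3, and 0.31 in the value table). The endothelial list had all 8 genes well above background in gonad, as in liver and kidney. Cdh5 was at 1.60 to 2.25 in gonad and at 1.13 to 2.96 in liver, where Col15a1 was not called. The part of endothelial cells was not tested. Col18a1, the other multiplexin, was called in no comparison, with its highest mean in liver (3.58) and its lowest in heart (1.27).

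**Figure D3:**
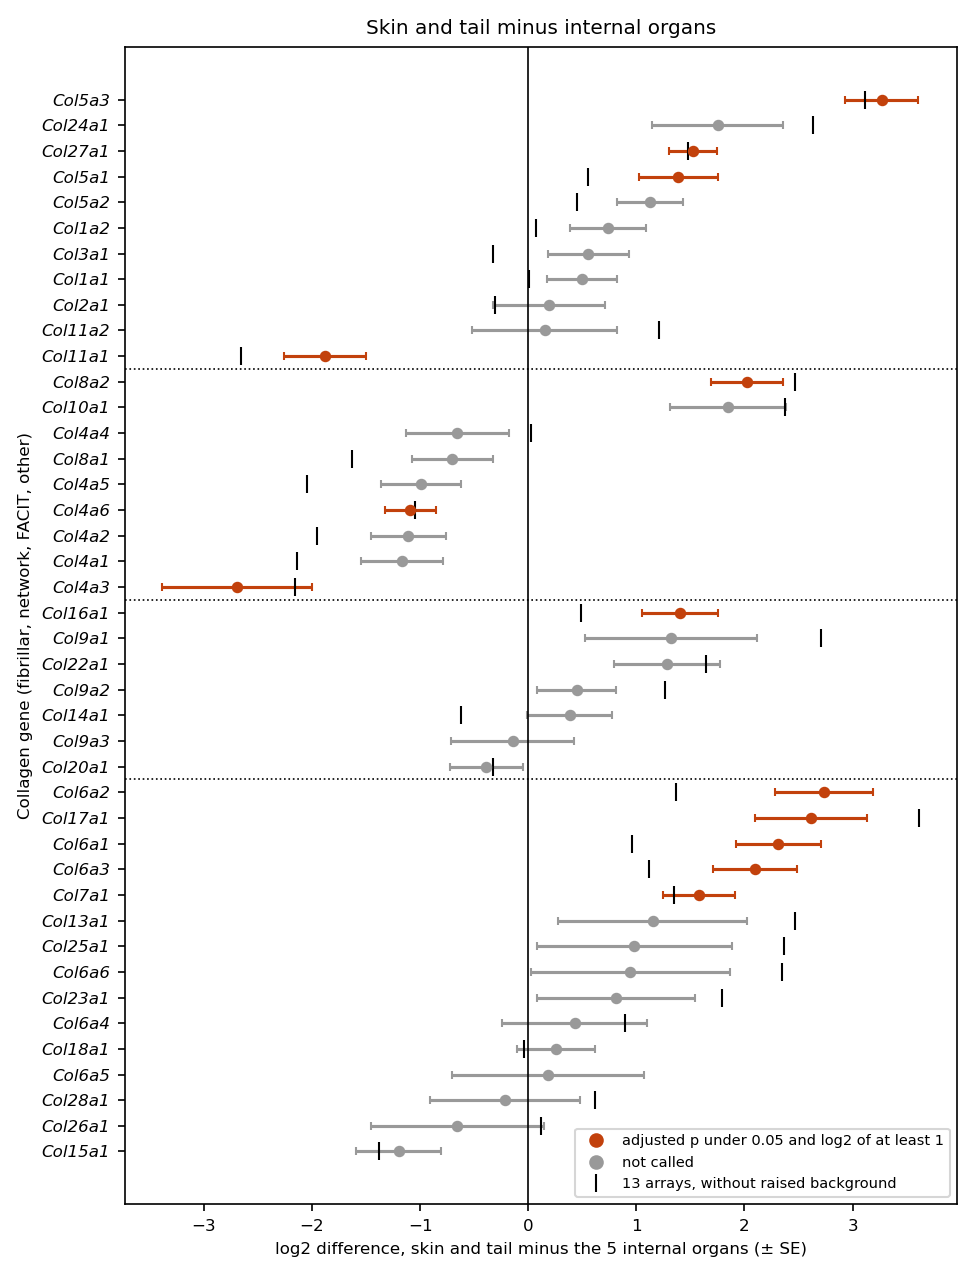
Log2 difference between skin and tail and the 5 internal organs for each of the 42 tested collagen genes, with its SE; orange points were called and black ticks give the difference over the 13 arrays without raised background. Col5a3 had the highest difference (3.27, and 3.12 over 13 arrays), while the 3 type VI chains and Col5a1 had smaller differences over 13 arrays.

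No collagen gene was called in lung by limma. The smallest adjusted p was 0.15, for Col5a3 (1.06 and 0.56, against 2.57 for the mean of the other organs). Other settings called up to 3. Only 2 lung arrays entered the fit.

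Kidney differed from the other organs in most of the family, as in most genes. The 15 lower genes were Col6a1, Col6a2, Col14a1, Col6a3, Col16a1, Col3a1, Col5a1, Col8a1, Col4a5, Col5a2, Col1a2, Col4a1, Col4a2, Col11a1 and Col1a1, with log2 differences from -6.12 to -2.04. The 11 higher were Col4a3, Col6a5, Col6a6, Col25a1, Col9a1, Col11a2, Col4a4, Col28a1, Col23a1, Col9a3 and Col9a2. Because both arrays have raised background, they were set beside the 3 other arrays that have it. Col6a1 had 0.58 and 0.57 in kidney, against 5.48, 5.00 and 7.63 in gonad replicate 3, heart replicate 1 and tail replicate 2, and Col6a2 had -2.36 and -2.44, against 1.92, 2.25 and 5.24. Col3a1 had 2.80 and 4.36, against 6.80, 5.52 and 6.49. Col5a1 had 1.86 and 3.47 in kidney, against 5.19, 3.82 and 6.64. These 4 genes were lower on both kidney arrays than on any of the 3.

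Col8a1 had -0.77 and -1.27 in kidney, against 2.23, 1.71 and 1.34 on those 3 arrays, and Col16a1 had 2.17 and 3.10, against 5.07, 4.51 and 6.86. In all, 15 of the 42 genes (35.7%) lay below all 3 of those arrays on both kidney arrays, against 17.3% of all genes, and 5 (11.9%) lay above, against 13.4% of all genes. With a term for raised background in the fit, 11 collagen genes were called in kidney, all lower, beside 14.2% of all genes: Col6a1 (-5.34), Col6a2 (-5.49), Col6a3 (-3.28), Col14a1 (-3.58), Col16a1 (-2.71), Col3a1 (-2.73), Col5a1 (-2.58), Col5a2 (-2.03), Col1a2 (-1.84), Col4a5 (-2.29) and Col8a1 (-2.28). None of the 11 higher genes was called in that fit. The term and the count against 3 arrays take the 5 arrays with raised background as alike. Median raw intensity was 1985 and 833 in kidney and 1100 in heart replicate 1, but 223 in gonad replicate 3 and 213 in tail replicate 2. The part of this unequal intensity in the kidney calls was not tested. Without kidney replicate 1, the differences of the 15 genes called lower ran from -6.13 to -1.66. Those of the 11 called higher ran from 1.83 to 4.05. That fit holds a single kidney array, so its calls are not read here. Col1a1, Col4a2 and Col9a3 changed direction under quantile normalization. The epithelial list had a summed level of 94.0 to 123 in kidney and 0.82 to 86.6 on the other arrays. All 8 of its genes were well above background in kidney, as in skin and tail, and 4 to 8 in the other organs. Pdgfra was at -1.78 and -0.77 in kidney and at least at 1.38 elsewhere. The part of these marker levels in the kidney results was not tested.

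**Figure D4:**
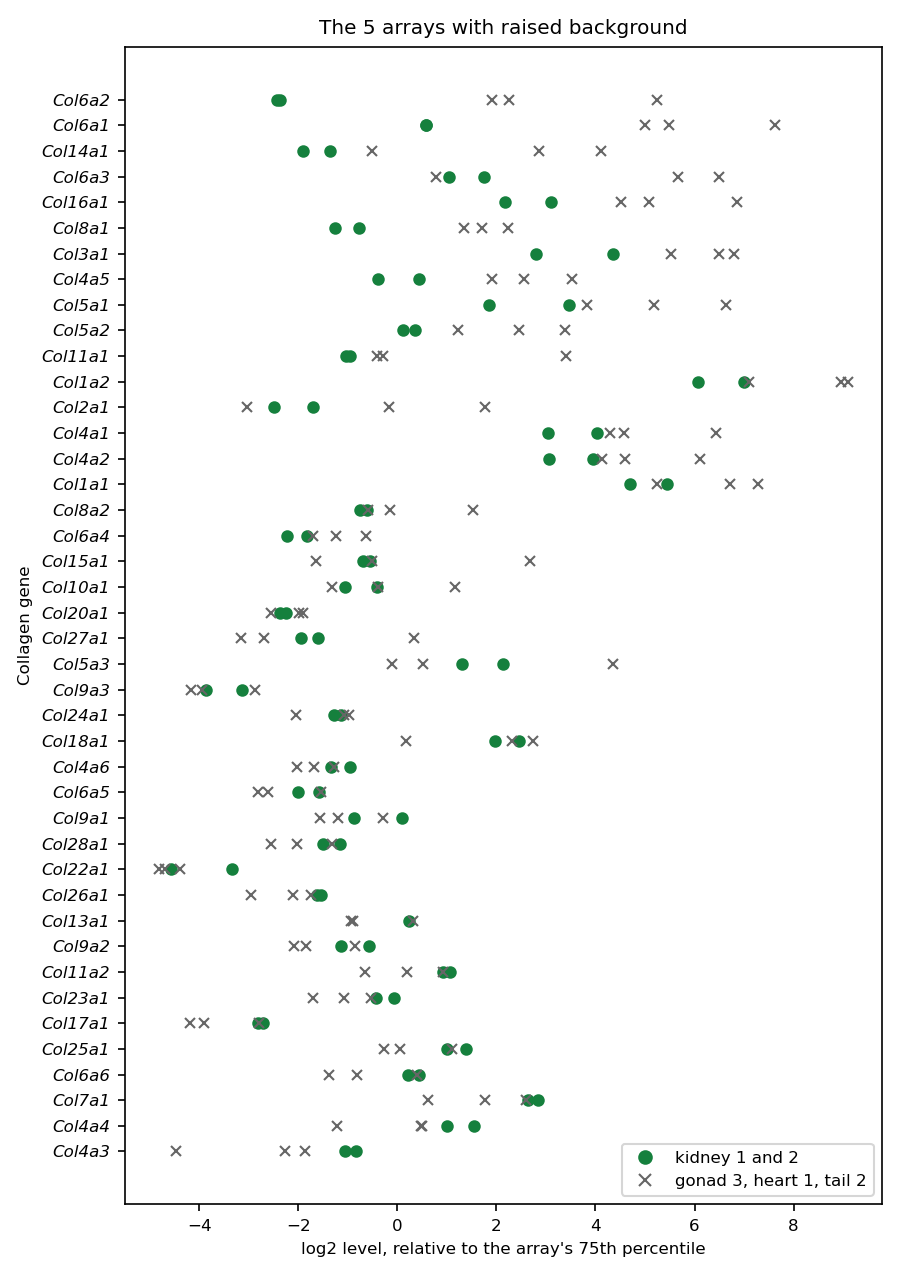
Log2 levels of the 42 tested collagen genes on the 5 arrays with raised background, kidney as filled points and gonad replicate 3, heart replicate 1 and tail replicate 2 as crosses, sorted by the difference. Col6a2 and Col6a1 lay far below the 3 other arrays in kidney, and Col4a3 and Col4a4 above them.

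Chains that share a molecule did not all follow each other over the arrays. Correlations here are descriptions over 18 arrays of 7 organs, or over the 13 without raised background, and the points share organs, slides and scaling. Col4a1 and Col4a2 had r = 0.99 over both sets, and Col6a1 and Col6a2 had 0.98 and 0.97. Col1a1 and Col1a2 had 0.99 and 0.87, and Col4a3 and Col4a4 had 0.90 and 0.83. Col6a1 and Col6a3, in contrast, had 0.74 over 18 arrays and 0.10 over 13, where the heart arrays fall away from the rest. Col4a5 and Col4a6 had 0.21 over 18 and 0.82 over 13, with the dimmer probe of Col4a6. The brighter probe, which followed the dimmer with r = 0.72, was not set against Col4a5, so the low value may hold for 1 probe only. Col8a1 and Col8a2 had -0.45 and -0.62, and Col11a1 and Col11a2 had -0.58 and -0.86. For comparison, the median over all 861 pairs of tested collagen genes was 0.01 over 18 arrays and 0.10 over 13.

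**Figure D5:**
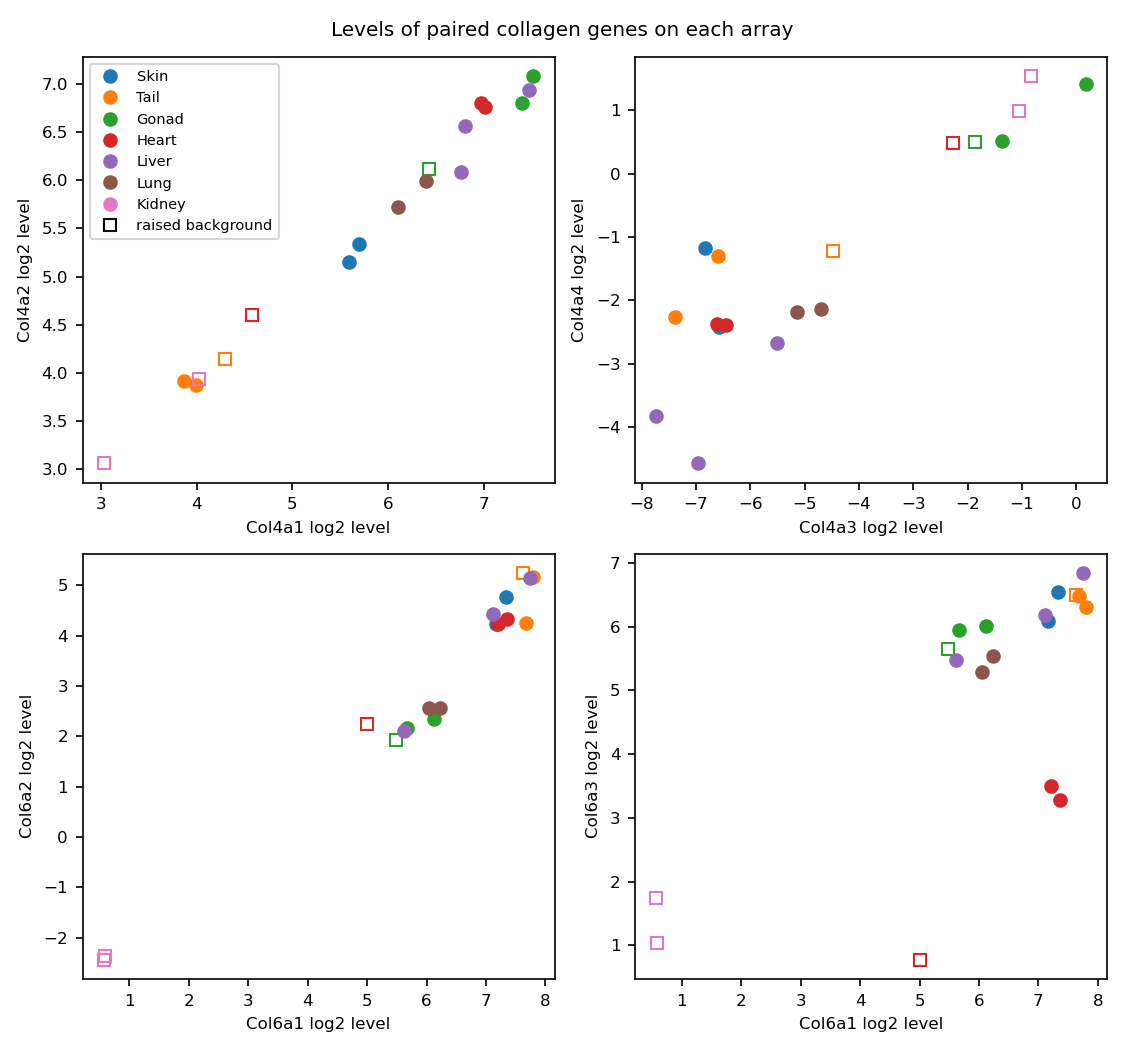
Log2 levels of 4 pairs of collagen genes on each array, coloured by organ, with open squares for raised background. Col4a1 and Col4a2 lie along a line (r = 0.99), as do Col6a1 and Col6a2 (0.98), whereas in the plot of Col6a3 against Col6a1 each heart array lies below the arrays of other organs with a like Col6a1 level.

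Of 36 genes for collagen synthesis and assembly, 2 (5.56%) rose in skin and tail and 1 (2.78%) fell, beside 2.5% and 1.66% of all genes. Lox, the lysyl oxidase that crosslinks fibrils, was higher by 2.07 ± 0.40 in skin and tail (adjusted p = 0.0069) and by 2.35 ± 0.47 in tail (adjusted p = 0.0069). P4ha2, a prolyl hydroxylase subunit, was higher in skin and tail (1.78 ± 0.35, adjusted p = 0.0072), and Plod2, a lysyl hydroxylase, was lower there (-1.51 ± 0.39, adjusted p = 0.046) and higher in gonad (1.92 ± 0.47, adjusted p = 0.042). Tll1, a procollagen C-proteinase related to Bmp1, was lower in heart (-2.75 ± 0.39, adjusted p = 0.00090) and tail (-2.13 ± 0.39, adjusted p = 0.0038), and higher in gonad (1.64 ± 0.39, adjusted p = 0.036). In liver, lung and skin, no gene of this list was called.

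Of 16 genes for collagen receptors and turnover, 15 were tested, and 2 (13.3%) rose in skin and tail with none lower, beside 2.5% and 1.66% of all genes. Ctsk, the collagen-cleaving cathepsin K, was higher by 2.14 ± 0.37 in skin and tail (adjusted p = 0.0033) and by 2.19 ± 0.44 in tail (adjusted p = 0.0068), and Mmp2, a gelatinase, by 1.49 ± 0.37 in skin and tail (adjusted p = 0.036). Itga11, the collagen-binding integrin chain of fibroblasts, was higher in skin (2.48 ± 0.50, adjusted p = 0.027), and Itga1 in gonad (1.79 ± 0.37, adjusted p = 0.016). Fap, a protease of activated fibroblasts, was lower in tail (-2.19 ± 0.60, adjusted p = 0.043). The median of the synthesis list was 0.67 in skin and tail and that of the receptor list 0.50, beside 0.45 for all genes. In kidney, 29 of 36 synthesis genes (80.6%) and 9 of 15 receptor and turnover genes (60%) were lower, beside 41.4% of all genes. In the same lists 4 (11.1%) and 2 (13.3%) were higher, beside 35.1% of all genes. Results by gene under the alternatives and with 1 array left out are given for collagen genes only. How far the calls in these lists depend on kidney, an internal organ here, or on the arrays with raised background was not tested.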

How the data were processed

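RNA of cultured organ fibroblasts was labelled with Cy3 and hybridised to 1-colour Agilent mouse arrays of 62976 spots, with a design on mm9 per the file headers. The deposited scanner output was made by the authors with Agilent Feature Extraction 11.0.1.1, per the submitters' processing notes and the file headers, and holds for each spot a background-subtracted processed intensity, a raw and a background intensity, and flags of another kind (0 or 1). The deposited value table holds an intensity equal to the raw signal of all spots on 18 arrays; it served as an alternative, and lung replicate 2 is in it alone.

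Of 55681 biological probes, 27229 had a symbol through RefSeq accessions, for 20656 genes, and 63 belonged to collagen genes. Spots flagged as outliers were dropped (2023 probe values, 1856 of them on kidney replicate 2), spots of a probe were averaged, and log2 of the processed intensity was centred on the 75th percentile of its array. The probe with the highest mean and no missing value stood for a gene. Genes well above background on at least 2 arrays, with a value in each organ, were tested (20187). Col13a1 has no value on kidney replicate 2. A linear model with 7 organ means was fitted with limma 3.58.1 (R 4.3.3), with 11 residual degrees of freedom, no covariate, 8 contrasts and an F test, with Benjamini-Hochberg adjustment over all genes tested. Where no array of an organ had a probe well above background, a fold is given as a bound. It is taken against the higher of its own signal and the lowest signal of probes well above background, per array. Dim arrays of the remaining organs kept their own signal. Where such arrays entered, the fold of a gene called higher is not a strict lower bound. The number of arrays limits the precision.

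All called collagen genes are named, with values by array for at least the 2 largest differences in each class; of the other lists, at most 4 called genes a comparison. The collagen genes, classes, lists, markers and chain pairs were chosen with earlier results of these data known. The fit was tested on simulated data: in the heart comparison over 20187 genes, 6, 22, 34 and 44 of 50 genes shifted by 1.5, 2, 3 and 4 log2 units were called, with 6 false calls. Alternatives changed the scaling, background correction, filter, probe rule, blocks, covariates and arrays. Figures were drawn with matplotlib 3.10.9 in Python 3.11.15.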

Additional observations from a re-analysis of the deposited data

How the results depend on the processing

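Outside kidney, 45 results of collagen genes were called. None changed direction under the alternatives run or with 1 array left out; 69 of 675 values under alternatives and 146 of 810 with 1 array left out were no longer called, and 12 results were called throughout. Slide as a block ended 6 of the calls (adjusted p between 0.051 and 0.086), and the replicate number as a block 8. Within slides, 43 of the 45 kept their direction on each slide that gave a value (not Col8a1 in heart and Col7a1 in skin and tail), as did all 26 kidney calls. In kidney, Col1a1 had 0.31 and 0.36, Col4a2 0.047 and 0.057 and Col9a3 -0.21 and -0.48 after quantile normalization with and without normexp correction, against the direction in the report; the cause was not tested.

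The count of called collagen genes over the 13 arrays without raised background was 21 in gonad (23.3% of all genes), 14 in heart (9.57%), 6 in liver (6.16%), 3 in lung (2.49%), 16 in skin (25%) and 24 in skin and tail (28.7%), with 15 in tail (23.3%). That fit has fewer arrays and no kidney, and the part of either in the counts was not tested. With normexp and quantile normalization of these 13, chosen after seeing the data, the count was 9 in heart, 1 in lung and 10 in skin. Over all genes the calls were 1118, 416 and 1385. A term for raised background gave 18 in gonad, 9 in heart, 11 in kidney, 1 in lung, 10 in skin and 22 in skin and tail. Over all genes it gave 2566, 1123, 2861, 211, 1730 and 3636, against 574, 745, 15444, 102, 277 and 840 in the main fit. Heart had 12 with normexp and quantile normalization (900 of all genes), 14 with quantile normalization alone (969) and 3 with the array's background floor as a covariate (600). Lung had 2, 1 and 1 with normexp and quantile, quantile and median scaling (241, 185 and 180 of all genes) and 2 in the value table (500). Skin had 7 with median scaling (578), and liver had 5 in the value table (529, against 340 in the main fit). The cause of these shifts was not tested. Setting saturated spots to missing changed nothing, as no spot was flagged so.

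With 1 array left out, the counts ran from 3 to 18 in gonad, 3 to 15 in heart, 7 to 30 in kidney, 0 to 13 in liver, 0 to 3 in lung, 0 to 11 in skin, 4 to 15 in tail, 6 to 18 in skin and tail and 22 to 39 for the F test. Leaving out heart replicate 1 gave 15 in heart, 14 in gonad, 13 in liver, 11 in skin and 3 in lung. Leaving out gonad replicate 3 gave 18 in gonad and 9 in heart. The counts with 1 array left out come without the share over all genes, so their change is not a result about the family. Either of gonad replicates 1 and 2 left out gave 3 in gonad, either skin array 0 in skin and 6 in skin and tail, tail replicates 1, 2 and 3 in turn 4, 5 and 5 in tail, liver replicates 1, 2 and 3 in turn 1, 0 and 1 in liver, and heart replicate 3, kidney replicate 2 or skin replicate 2 gave 3 in heart.

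Whether replicate numbers pair samples across organs cannot be told here. Over 46 pairs of arrays with the same number in different organs, deviations from the organ means correlated from -0.85 to 0.78 (median -0.04), with 13 over 0.1. The median over 92 pairs of different number was 0.02. Deviations from means of so few arrays offset one another, and the arrays with raised background carry unlike numbers. These values therefore cannot exclude a pairing. With the replicate number as a block, 6 collagen genes were called in gonad (495 of all genes), 3 in heart (634), 26 in kidney (14935) and 3 in liver (256). It gave 0 in lung (47), 3 in skin (165), 11 in tail (1039) and 11 in skin and tail (736), and 26 passed the F test (3182).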

Other observations

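Lung replicate 2, which the comparisons leave out, could be read in the deposited value table of raw intensities, scaled in the same way. Over 20174 genes it correlated with lung replicates 1 and 3 at r = 0.93 each, and these with each other at 0.99; no other sample was closer to it. Of 43 collagen genes, 38 lay within 1 log2 unit of the mean of the other lung replicates and 5 (11.6%) did not, beside 6.24% of all genes. Col15a1 was at 6.23 in lung replicate 2, and at -1.93 and -1.74 in replicates 1 and 3, a difference of 8.07. Its other probes did not show this: they were at -2.53 and -2.71 in lung replicate 2, and between -3.28 and -2.62 in replicates 1 and 3. The other 4 differences were 1.29 for Col26a1, 1.19 for Col8a2, -1.09 for Col24a1 and -1.52 for Col2a1.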
